A study of Mus musculus with 32 samples.

Results

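Glycolysis and the response to low oxygen were followed in mouse tumour-associated macrophages through 39 genes, chosen by name: 16 glycolytic enzymes, 3 transporters of glucose or lactate, 3 regulators of glycolytic flux, 5 genes of oxygen sensing and 12 other targets of the hypoxia-inducible factors (HIF). A gene was read from probe sets that carry its symbol alone, and the probe set of highest mean stood for the gene. That gave 35 of the 39 genes among 17097 on the HT_MG-430_PM chip and 34 among 22180 on the Mouse Gene 2.0 ST chip, with 32 on both. Gpi1 and Eno1 had no such probe set on either chip. Pgam1 and P4ha1 were read on the second chip only, and Aldoa, Bnip3l and Ankrd37 on the first only. Ero1l is listed under its newer symbol, Ero1a.

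The study profiled macrophages of mouse tumours on 32 arrays in 3 experiments, to find the pathways that these cells switch on and how TNFR1 and Myd88 signalling bear on them. In the first, cells enriched with CD11b beads came from neuroblastomas that arise spontaneously in the peritoneum of Th-MYCN transgenic mice (3 arrays) or from tumours grown in WT mice from EG7, a transplanted lymphoma line that forms thymomas (3 arrays). In the second, bead-enriched cells came from EG7 tumours grown in WT hosts (5 arrays) or in Myd88-/- hosts (5 arrays), which lack the adaptor of Toll-like and interleukin-1 receptors in every cell. In the third, 2 populations of CD11b+ cells were sorted from EG7 tumours: A was Ly6C+ and negative for Ly6G and MHCII, and C was MHCII+ and Ly6C-. The hosts were WT, TNFR1-/- alone, Myd88flox/flox; Tie2-Cre alone, or both together (TNFR1-/-; Myd88flox/flox; Tie2-Cre, here the double), with 2 arrays for each population and genotype. Tie2-Cre deletes floxed Myd88 in endothelium and blood-forming cells, TNFR1-/- removes the receptor encoded by Tnfrsf1a from the whole host, and the transplanted EG7 cells keep both genes. The neuroblastoma hosts carry the transgene that drives the tumour, and the EG7 hosts do not. Ages of the mice are not given in the sources used here, nor whether 2 arrays of a group came from separate mice, so a p-value here reflects how far these arrays spread.

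Glycolysis splits glucose into pyruvate, and its enzymes act in a fixed order. Hexokinases (Hk1, Hk2, Hk3) trap glucose, phosphofructokinases (Pfkl, Pfkm, Pfkp) commit it and aldolases (Aldoa, Aldoc) split it. Tpi1 interconverts the products, Pgk1, Pgam1, enolases and Pkm harvest the energy, and Ldha turns pyruvate into lactate. In low oxygen the prolyl hydroxylases (Egln1, Egln3) no longer mark HIF for destruction through Vhl, and HIF (Hif1a or Epas1 with its partner) binds a short core, ACGTG or GCGTG, near its targets, among them most glycolytic genes. Macrophages that settle in poorly perfused tumour regions are known for this response, and inflammatory signals raise parts of it too.

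The promoters below are shown because they belong to members whose differences carry the results. They come from RefSeq (assembly GRCm38.p6), run from 250 bases before a transcript's start to 50 after it, and are written 5′ to 3′ along the gene's strand. Capitals mark both spellings of the core, ACGTG and GCGTG, on either strand, so that an overlapping pair such as CACGTG counts once on each strand. P4ha1, whose enzyme hydroxylates collagen prolines, lies at chr10:59323046-59323345 (plus strand) and held 3 matches. Egln3, the prolyl hydroxylase that HIF itself induces, lies at chr12:54203825-54204124 (minus strand) and held 1. Ankrd37, a small ankyrin-repeat protein gene known as a HIF target, lies at chr8:45999801-46000100 (minus strand) and held 4. Pgk1, the first ATP-yielding enzyme of the pathway, lies at chrX:106186850-106187149 (plus strand) and held 2. Tpi1, triosephosphate isomerase, lies at chr6:124814109-124814408 (minus strand), and neither spelling is in this window.
P4ha1: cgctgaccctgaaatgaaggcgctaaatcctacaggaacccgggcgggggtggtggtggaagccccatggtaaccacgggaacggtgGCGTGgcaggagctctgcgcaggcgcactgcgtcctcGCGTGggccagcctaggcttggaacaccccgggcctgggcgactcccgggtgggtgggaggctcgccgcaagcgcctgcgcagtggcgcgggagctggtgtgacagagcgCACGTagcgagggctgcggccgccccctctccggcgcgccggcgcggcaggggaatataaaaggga
Egln3: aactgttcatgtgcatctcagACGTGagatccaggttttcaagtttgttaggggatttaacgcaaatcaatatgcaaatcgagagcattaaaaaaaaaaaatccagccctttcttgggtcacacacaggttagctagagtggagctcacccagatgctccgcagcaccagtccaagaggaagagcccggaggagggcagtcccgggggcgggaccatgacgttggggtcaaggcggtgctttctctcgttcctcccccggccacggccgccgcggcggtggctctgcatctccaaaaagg
Ankrd37: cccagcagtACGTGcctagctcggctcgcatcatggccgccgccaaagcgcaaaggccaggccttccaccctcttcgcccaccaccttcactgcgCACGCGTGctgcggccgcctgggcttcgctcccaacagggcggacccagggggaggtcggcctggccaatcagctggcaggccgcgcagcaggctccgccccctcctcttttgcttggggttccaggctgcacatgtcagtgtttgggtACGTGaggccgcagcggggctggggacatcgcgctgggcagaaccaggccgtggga
Pgk1: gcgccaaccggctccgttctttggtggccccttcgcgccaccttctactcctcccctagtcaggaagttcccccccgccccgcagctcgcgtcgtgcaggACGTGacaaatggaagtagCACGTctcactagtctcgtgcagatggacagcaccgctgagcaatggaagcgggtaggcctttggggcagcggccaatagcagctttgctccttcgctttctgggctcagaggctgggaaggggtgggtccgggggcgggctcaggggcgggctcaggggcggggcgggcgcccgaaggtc
Tpi1: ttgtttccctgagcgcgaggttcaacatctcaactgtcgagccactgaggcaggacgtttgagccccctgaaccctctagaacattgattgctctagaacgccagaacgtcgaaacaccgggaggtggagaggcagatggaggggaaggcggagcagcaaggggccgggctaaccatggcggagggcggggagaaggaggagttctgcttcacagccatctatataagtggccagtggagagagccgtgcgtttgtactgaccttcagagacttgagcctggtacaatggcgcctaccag

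Of the 39 members, 35 had 1 or more promoter windows, 52 in all, and 4 (Slc2a3, Epas1, Bnip3l and Ndrg1) had none in the table. ACGTG was found in 53.8% of the 52 member windows and in 19.6% of the 32851 mouse windows of the same length. GCGTG was found in 51.9% and 32.4%, and either spelling in 76.9% and 43.8%. By role, either spelling was in 20 of 27 enzyme windows, 11 of 14 windows of other HIF targets, 4 of 5 of flux regulators and 3 of 4 of oxygen sensing genes. Many members were listed because they are HIF targets, so a higher share among them is no separate support. Of the 35 members, 11 had more than 1 window, and each window was counted. A match describes the letters only, and no binding was measured.

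The values are log2 signals deposited by the authors, and a difference of 1 is a 2-fold change. The median signal of an array lay at 3.84 to 3.93 for the tumour models, at 2.95 to 3.03 for the WT and Myd88-/- hosts and at 5.31 to 5.5 for sorted cells, so levels are compared within an experiment only. Replicate arrays correlated at 0.966 or more over all genes, except the pair of A from WT hosts at 0.948. Myd88 was lower by 0.75 ± 0.10 (SE) in Myd88-/- hosts (limma, adjusted p = 0.00175) and differed by -1.79 ± 0.19 in A and -1.76 ± 0.19 in C of the floxed hosts (adjusted p = 0.000562 and 0.0036). Tnfrsf1a differed by -0.34 ± 0.17 in A and -0.54 ± 0.17 in C between hosts without and with TNFR1, and neither was called (limma, adjusted p = 0.39 and 0.233). Whether its probes lie in the deleted part of the gene is not known here, so the TNFR1 labels are unchecked. Differences were tested with limma across all genes of a chip above a low-signal threshold, and a gene was called at a Benjamini-Hochberg adjusted p under 0.05. Arrays are named below by group and replicate number, and errors are standard errors (SE).

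In neuroblastoma against EG7 tumours, 4 glycolytic genes were lower and the HIF subunit Epas1 was higher, while none of the 11 other HIF targets was called. Slc2a3, the high-affinity glucose transporter, was 3.4-fold lower, Aldoc 2.63-fold, Pdk1 2.53-fold and Pfkp 2-fold, and Epas1 was 2.7-fold higher. Of the 34 members tested, 1 was called higher (2.94%) and 4 lower (11.8%), beside 9.49% of 12577 genes called higher and 5.22% called lower. The neuron-type enolase Eno2 was at 5.57, 4.01 and 3.26 on the neuroblastoma arrays, against 3.20, 3.47 and 3.41 for EG7. It was above the low-signal threshold in 2 arrays where 3 were needed, so its difference of 0.92 was not tested. Among the tested members, 2 had every neuroblastoma array above every EG7 array and 8 below, beside 19.1% and 17% of all genes tested.

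Among the transporters, Slc2a3 had values of 9.82, 9.74 and 9.29 in the neuroblastoma arrays and 11.60, 11.31 and 11.24 in the EG7 arrays. All 3 neuroblastoma arrays lay below all 3 EG7 arrays, a difference of -1.77 ± 0.20 (limma, adjusted p = 0.00292). Its 3 probe sets above the threshold had the same sign. The broad glucose transporter Slc2a1 (difference -0.17) and the lactate exporter Slc16a3 (-0.37) overlapped between the groups and were not called.

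Of the 12 enzymes tested, 2 were called, both lower. Pfkp, the platelet-type phosphofructokinase, was at 9.49, 10.05 and 9.13 in the neuroblastoma arrays, against 10.60, 10.52 and 10.54 for EG7. The EG7 values sat within 0.1 of each other and above every neuroblastoma array, and the difference was -1.0 ± 0.24 (limma, adjusted p = 0.0399). Aldoc, the aldolase known best from brain, read 6.42, 6.93 and 6.05 against 7.64, 8.40 and 7.55, a difference of -1.40 ± 0.31 (limma, adjusted p = 0.0305). A further probe set differed by -0.34 for Pfkp, with overlapping groups, and by -0.68 for Aldoc. Ldha and Pgk1 also lay lower in every neuroblastoma array, by 0.32 ± 0.14 and 0.36 ± 0.20, and were not called (adjusted p = 0.18 and 0.279). The other enzymes differed by -0.32 to 0.11, with overlapping groups. The median difference over the enzymes was -0.30, beside -0.03 over all genes of the chip.

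The flux regulator Pdk1 encodes a kinase that holds back the oxidation of pyruvate in mitochondria. It read 7.88, 6.76 and 7.10 in neuroblastoma against 8.58, 8.77 and 8.40 in EG7, a difference of -1.34 ± 0.30 (limma, adjusted p = 0.0297). Its 3 probe sets had the same sign, with differences from -1.41 to -0.25. Pfkfb3 and Pfkfb4, which make the activator of phosphofructokinase, differed by -0.08 and 0.22 and overlapped. Epas1, which encodes HIF-2 alpha, read 11.33, 10.47 and 11.01 against 9.58, 9.46 and 9.47. Every neuroblastoma array was above every EG7 array, by 1.43 ± 0.23 (adjusted p = 0.0103). Hif1a (-0.47), Egln1 (0.15), Egln3 (-0.71) and Vhl (-0.26) were not called, and their groups overlapped.

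Among the other HIF targets, the differences went both ways around a median of 0.00. Adm, the secreted peptide adrenomedullin, was at 9.82, 8.09 and 8.16 in the neuroblastoma arrays, against 6.41, 7.61 and 6.40 for EG7. These arrays did not overlap, and the difference of 1.88 ± 0.55 missed the threshold (limma, adjusted p = 0.0675). Higd1a, a mitochondrial protein, and Bnip3l, a mitophagy receptor, lay below EG7 in all 3 neuroblastoma arrays (-0.67 ± 0.19 and -0.49 ± 0.17, adjusted p = 0.0638 and 0.102). The neuroblastoma arrays also differed among themselves: the mean over these targets was 9.54, 9.06 and 8.58 in arrays 1, 2 and 3, and array 1 was highest for Bnip3 (11.87 against 10.80 and 9.68), Ddit4 and Adm.

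**Figure D1:**
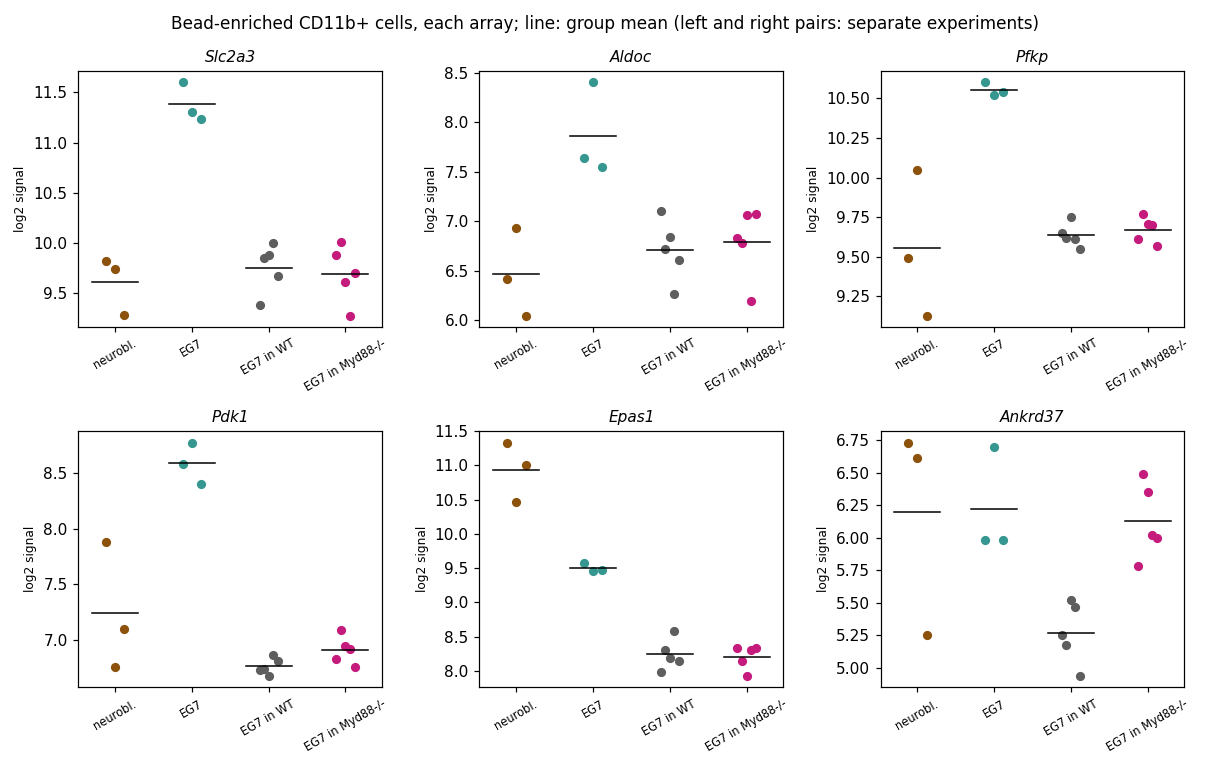
Log2 signal of selected members on each bead-enriched array, with neuroblastoma (3 arrays) and EG7 (3 arrays) of the first experiment apart from WT (5) and Myd88-/- (5) hosts of the second; points are arrays and bars are group means. Slc2a3, Pfkp, Aldoc and Pdk1 are lower in all 3 neuroblastoma arrays, Epas1 is higher in all 3, and Ankrd37 is higher in all 5 Myd88-/- arrays.

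Genes of other cells differed between these groups too. The T lymphocyte and EG7 line markers averaged 4.22 to 5.70 in neuroblastoma and 7.92 to 8.29 in EG7, with 8 of 10 lower, and Themis was below the threshold in neuroblastoma. Neuroblastoma and sympathetic neuron markers averaged 7.41 to 8.40 against 3.69 to 3.73, with 12 of 14 higher and Isl1 and Nefm below the threshold in EG7, and 7 of 10 endothelial and 4 of 9 fibroblast markers were higher (1 lower). Mature macrophage markers averaged 11.17 to 11.47 and 11.03 to 11.23, with 1 of 12 called, lower. The part of these cells in the members' differences was not tested, and in bulk RNA fewer cells of a type and less RNA per cell cannot be told apart.

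The members called in this comparison depended on single arrays. Slc2a3 was called whichever array was left out, and Epas1 in every case but without EG7 array 1 (adjusted p = 0.0521). The number called was 3 without neuroblastoma array 1, 6 without array 2 and 2 without array 3, and 1, 2 and 2 without EG7 arrays 1, 2 and 3.

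Of 15 further glycolysis and lactate genes, 5 were called. Pdk4 was higher in neuroblastoma (3.44 ± 0.66) and 4 were lower, among them Slc16a1 (-1.15 ± 0.20), Eno3 (-1.08 ± 0.23) and Pdk3 (-1.13 ± 0.24). Pdk4 was below the low-signal threshold on every EG7 array, so the size of its difference is poorly known. Of 28 further HIF genes, 3 were higher, Arnt2 (4.54 ± 0.29), Plod2 (1.80 ± 0.35) and Car12 (1.74 ± 0.41), and Stc2 was lower (-0.79 ± 0.20). These shares were close to the 9.49% of genes called higher and 5.22% called lower over the chip. Arnt2 was below the threshold on every EG7 array and Stc2 on every neuroblastoma array, so the sizes of their differences are poorly known. Of 20 genes of the citric acid cycle and pyruvate oxidation, 1 was lower, the pyruvate carrier Mpc1 (-1.26 ± 0.15). None of 5 pentose phosphate genes was called (Pgd -0.59 ± 0.20, Taldo1 -0.33 ± 0.15; limma, adjusted p = 0.0996 and 0.186).

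In Myd88-/- against WT hosts, the glycolytic genes differed little and 1 HIF target was called. None of the 19 glycolytic members was called by limma, and their differences ran from -0.18 (Pfkfb4) to 0.18 (Pfkfb3). None of them had an unadjusted p under 0.05, beside 1486 of the 11915 genes tested. Ankrd37 was 1.81-fold higher in Myd88-/- hosts. That is 1 of 35 members called higher and 0 lower, beside 0.26% of 11915 genes called higher and 1.18% called lower.

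Ankrd37 read 5.25, 5.18, 5.52, 5.47 and 4.94 in WT hosts and 5.78, 6.49, 6.35, 6.02 and 6.0 in Myd88-/- hosts. All 5 Myd88-/- arrays were above all 5 WT arrays, by 0.86 ± 0.15 (limma, adjusted p = 0.00962). It was called whichever array was left out, with differences of 0.77 to 0.94, and was not called when all 16 arrays of the chip shared a fit (adjusted p = 0.276). Myd88 itself was not called in that fit either (adjusted p = 0.139).

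A pair of other HIF targets had groups that did not overlap and missed the threshold. Bnip3l read 10.30, 10.03, 10.09, 10.36 and 10.22 in WT hosts and 10.58, 10.47, 10.50, 10.49 and 10.46 in Myd88-/- hosts, which is 0.30 ± 0.08 higher (limma, adjusted p = 0.109). Adm read 6.39, 6.47, 6.30, 6.47 and 6.44 against 5.90, 5.73, 5.68, 6.22 and 6.28, a difference of -0.45 ± 0.12 (adjusted p = 0.0959). Ankrd37, Bnip3l and Adm were the only members of 35 with an unadjusted p under 0.05, beside 1486 of the 11915 genes tested. Over all genes tested, 1.35% had every Myd88-/- array above every WT array and 1.68% below.

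The remaining HIF targets, from Ddit4 at -0.23 to Kdm3a at 0.19, overlapped between the hosts, as did the oxygen sensing genes, from Hif1a at -0.13 to Vhl at 0.14. Median differences were 0.04 for the glycolytic genes, 0.05 for the HIF targets and 0.01 over the chip. The standard errors of the 13 enzymes' differences were 0.07 to 0.18. Aldoa, the widely expressed aldolase, read 12.08 in WT array 1 and 11.66 to 11.75 in the other WT arrays, with 11.78 to 12.02 in Myd88-/- hosts.

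**Figure D2:**
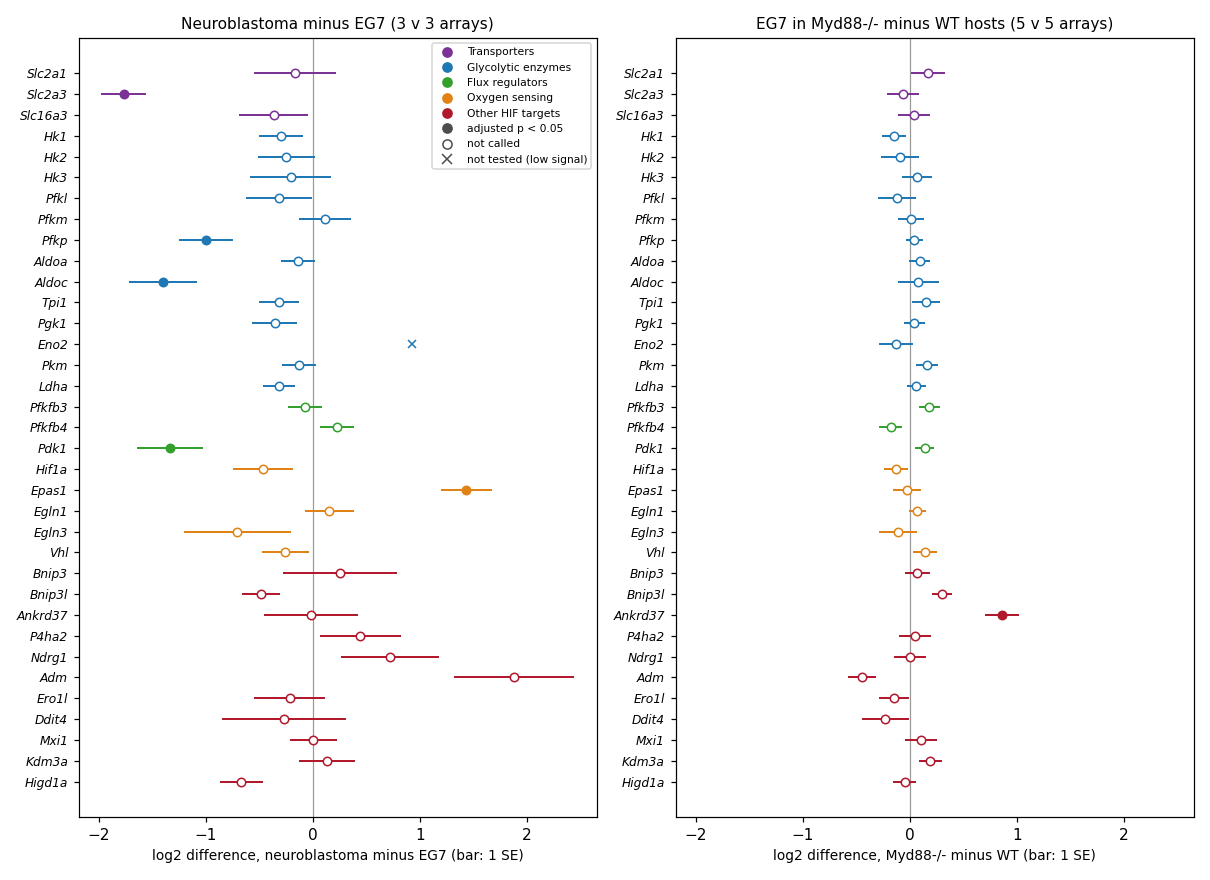
Log2 difference of every member on the HT_MG-430_PM chip, neuroblastoma minus EG7 and Myd88-/- minus WT, ordered by role, with bars of 1 SE and filled points for called members. The first comparison has 5 called members, from Slc2a3 at -1.77 to Epas1 at 1.43, and the second has 1, Ankrd37 at 0.86.

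Monocyte markers moved in the same comparison: 5 of 8 were lower in Myd88-/- hosts, with list means of 8.93 to 9.04 against 9.36 to 9.57, among them Ccr2 (-1.07 ± 0.19) and Ly6c1 (-0.82 ± 0.10). Their part in the members' values was not tested. The signal at the 3′ end of actin over its 5′ end, a sign of RNA quality, was 0.54 to 0.68 in WT and 0.64 to 0.78 in Myd88-/- arrays on the log2 scale. Of 13 further glycolysis genes, the transporter Slc2a6 was lower (-0.93 ± 0.13; limma, adjusted p = 0.0027). Limma called none of 25 further HIF genes (Tfrc -0.57 ± 0.15, adjusted p = 0.099), none of 20 citric acid cycle genes and none of 5 pentose phosphate genes.

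Between the sorted populations, most glycolytic enzymes were lower in A, the Ly6C+ cells, than in C, while 2 transporters were higher. Averaged over the 4 genotypes, Slc2a3 was 4.93-fold higher in A and the lactate exporter Slc16a3 1.62-fold, and 17 members were lower, from Ndrg1 (2.09-fold) to Pfkm (1.19-fold). By role, 11 of 13 enzymes, 2 of 3 flux regulators, 1 of 5 oxygen sensing genes and 3 of 9 other HIF targets were lower. The members called were 6.06% higher and 51.5% lower of 33, where 11.1% of 16524 genes were called higher in A and 21.3% lower. The median difference was -0.45 over the enzymes, -0.18 over the HIF targets and 0.05 over all genes of the chip. In 1 member every A array was above every C array and in 3 below, beside 1.12% and 4.86% of all genes tested.

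Slc2a3 ran from 6.43 to 7.16 in the 8 C arrays (median 6.68) and from 7.40 to 10.61 in the 8 A arrays (median 9.03). The populations did not overlap, and the difference was 2.30 ± 0.20 (limma, adjusted p = 2.04e-06). C stayed within a narrow range in every genotype, whereas A read 8.00 and 7.40 in WT hosts, 8.90 and 9.72 in TNFR1-/-, 9.48 and 9.02 in Myd88flox/flox; Tie2-Cre and 10.61 and 9.04 in the double. Slc16a3 ran from 7.46 to 8.34 in C and 7.56 to 9.48 in A, with overlap (0.69 ± 0.19, adjusted p = 0.013), and it was not higher in A of WT hosts (8.38 and 7.56 against 8.34 and 8.03). Slc2a1 differed by -0.31 ± 0.13 and was not called (adjusted p = 0.0954).

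At the first step of the pathway, Hk3, the myeloid hexokinase, ran from 7.80 to 8.50 in C and 6.72 to 7.57 in A. The populations did not overlap (-0.83 ± 0.13; limma, adjusted p = 0.000313). Hk2, the inducible form, was lower by 0.45 ± 0.12 with overlap, and the housekeeping Hk1 differed by -0.05. All 3 phosphofructokinases were lower in A: Pfkl by 0.75 ± 0.14 (7.09 to 8.17 against 7.92 to 8.95, adjusted p = 0.000831), Pfkp by 0.39 ± 0.09 and Pfkm by 0.25 ± 0.07. For Pfkm, both A arrays of TNFR1-/- hosts were below the low-signal threshold.

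Most of the later steps were lower in A as well. Tpi1 ran from 9.74 to 10.55 in A (median 10.15) and 10.46 to 11.05 in C (median 10.67), a difference of -0.59 ± 0.11 (limma, adjusted p = 0.000886). Pgk1 ran from 9.69 to 10.45 and 10.29 to 10.95 (-0.57 ± 0.10, adjusted p = 0.000626), and Pgam1 from 8.52 to 9.36 and 9.16 to 9.73 (-0.56 ± 0.09, adjusted p = 0.00029). In these 3 enzymes only the highest A arrays reached into the range of C. Aldoc (-0.52 ± 0.10; limma, adjusted p = 0.00143), Ldha (-0.39 ± 0.09) and Pkm (-0.34 ± 0.10) were lower, and Eno2 differed by -0.15 without a call. Gapdh, from the further glycolysis genes, ran from 12.27 to 12.83 in A and 12.73 to 12.77 in C, and was not called.

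Of the flux regulators, Pfkfb3 did not overlap: it ran from 7.65 to 7.99 in C and 6.65 to 7.53 in A (-0.62 ± 0.10; limma, adjusted p = 0.000309). Pdk1 was lower by 0.39 ± 0.09 (adjusted p = 0.00392). Among the other HIF targets, Ndrg1, a stress-induced gene, ran from 8.81 to 10 in C and 7.46 to 8.80 in A, again without overlap (-1.06 ± 0.15, adjusted p = 0.000138). P4ha1 ran from 8.22 to 8.85 in C and 7.25 to 8.33 in A (-0.81 ± 0.09, adjusted p = 2.05e-05), and Bnip3, a mitophagy receptor, from 7.19 to 7.72 and 6.19 to 7.26 (-0.67 ± 0.10, adjusted p = 0.000253). In both genes 1 or more A arrays entered the range of C.

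Egln1, the main oxygen sensor, was lower in A by 0.67 ± 0.16 (5.51 to 6.98 against 6.78 to 7.25; limma, adjusted p = 0.00654). Hif1a (-0.15), Epas1 (0.16), Egln3 (-0.18) and Vhl (-0.10) were not called. Ero1l (0.11), Ddit4 (-0.24), Mxi1 (-0.27), Kdm3a (0.06), Higd1a (-0.12) and P4ha2 (-0.02) overlapped between A and C, and Adm, above the low-signal threshold in 1 of 16 arrays (5.54 in A array 1 of WT hosts), was not tested. Within each genotype taken alone, 15 of the 17 lower members had a lower mean in A in all 4 genotypes. The exceptions were Hk2, higher by 0.10 in A of the double, and Pkm, level with C (0.00) in the double. The 17 were called on the mean of the same 4 genotypes, so this count is no separate support. The size varied: Pgk1 differed by -0.90 in WT hosts and -0.18 in the double, and Ndrg1 by -0.59 and -1.01.

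**Figure D3:**
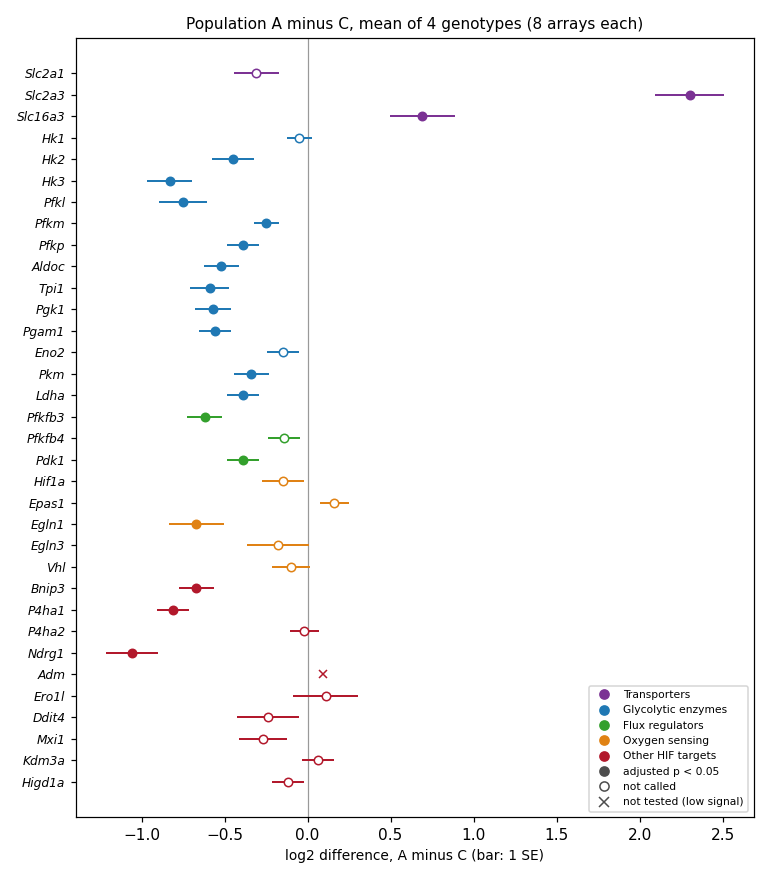
Log2 difference A minus C of each member on the Mouse Gene 2.0 ST chip, averaged over 4 genotypes (8 arrays against 8), ordered by role, with bars of 1 SE and filled points for called members. Slc2a3 at 2.30 and Slc16a3 at 0.69 lie above 0 and 17 called members below it, down to Ndrg1 at -1.06.

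Rescaling the sorted arrays to one distribution before the fit left 18 members called, 3 higher and 15 lower, 16 of them shared with the 19. Pfkp (-0.16), Ldha (-0.18) and Pkm (-0.16) were then not called, and Eno2 and Kdm3a were. The share of called genes that were higher in A went from 34.2% to 44.3% over the whole chip. Leaving out any 1 array kept 18 to 21 members called.

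The populations differed in their markers as sorted. Mature macrophage markers averaged 9.86 to 10.1 in C and 7.5 to 9.46 in A, with 11 of 12 lower in A. Monocyte markers were mixed: 4 of 8 were higher in A, among them Ly6c2 of the sort marker Ly6C (3.21 ± 0.18), and 1 was lower. Of 7 dendritic cell markers, 3 were lower in A. Neutrophil markers averaged 6.45 to 7.01 in A and 5.48 to 5.83 in C, with 8 of 11 higher. The sort of A was Ly6G-, and Camp was below the threshold in all 4 A groups while Retnlg was high (mean 10.77 against 5.12). In A, 7 of 9 fibroblast, 6 of 10 T lymphocyte and 4 of 9 endothelial markers were higher as well. The part of these cells in the members' differences was not tested.

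The mitochondrial end of the pathway was lower in A too. Of 21 genes of the citric acid cycle and pyruvate oxidation, 15 were lower in A and none higher, with a median of -0.33 beside 0.05 over the chip. Examples were Fh1 (fumarase, -0.94 ± 0.10), Sdha (-0.69 ± 0.11), Idh3a (-0.66 ± 0.11) and Sdhd (-0.60 ± 0.09). Of 26 further HIF genes, 6 were lower, among them the haem oxygenase Hmox1 (-1.39 ± 0.15), and 1 was higher, Lox (0.75 ± 0.10). The share that was lower was close to the 21.3% over the chip, where 11.1% were higher, and the median of these HIF genes was -0.07. Lox was below the low-signal threshold on every C array, so the size of its difference is poorly known. The pentose phosphate enzyme Taldo1 was higher in A (0.62 ± 0.17, 1 of 5), and none of 14 further glycolysis genes was called (Eno3 -0.23 ± 0.09; limma, adjusted p = 0.0532).

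In WT hosts alone, 2 arrays of A against 2 of C, 9 of 33 members (27.3%) were lower in A and none higher, beside 9.92% of genes lower and 3.53% higher. P4ha1 read 7.49 and 7.25 in A and 8.62 and 8.22 in C (-1.05 ± 0.18; limma, adjusted p = 0.00294). Pgk1 read 10.18 and 9.69 against 10.95 and 10.71 (-0.90 ± 0.20, adjusted p = 0.0114), and Pfkl 8.05 and 7.09 against 8.95 and 8.61 (-1.21 ± 0.27, adjusted p = 0.0116). Pgam1, Tpi1, Aldoc and Bnip3 were lower by 0.71 to 0.97.

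A pair of oxygen sensing genes was called in WT hosts that was not called over all genotypes. Egln3 read 7.69 and 6.93 in A and 8.82 and 8.21 in C (-1.21 ± 0.36; limma, adjusted p = 0.042), and Hif1a 9.96 and 9.48 against 10.81 and 10.26 (-0.82 ± 0.25, adjusted p = 0.043). Slc2a3 was higher by 0.96 ± 0.40 and was not called (adjusted p = 0.124). A array 2 of WT hosts had the lowest mean of all 16 sorted arrays over the glycolytic members, 7.53 beside 7.73 to 8.20 in the other A arrays, and over the HIF targets, 6.47 beside 6.74 to 7.29. Without it 2 members were called, without A array 1 17 were, without C array 1 none and without C array 2 12.

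Within A, the loss of Myd88 went with higher levels of 3 members: the HIF target P4ha1 (1.64-fold) and the oxygen sensing genes Egln3 (2.29-fold) and Epas1 (1.37-fold). The comparison set 4 arrays from hosts with deleted Myd88 (with or without TNFR1) against 4 from hosts that keep it. None of the 13 enzymes was called. Of the 33 members tested, 3 (9.09%) were called higher and none lower, beside 4.19% of genes called higher and 0.478% lower over the chip. The differences of the members leaned upward: 28 of the 34 on the chip were above 0, and the median was 0.31 beside -0.03 over the chip. An unadjusted p under 0.05 was found for 16 of 33 members, beside 3579 of the 16524 genes tested.

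P4ha1 read 7.49, 7.25, 7.43 and 7.28 in A of hosts with Myd88 and 7.84, 8.33, 8.13 and 8.00 in A of hosts without it. The 4 arrays without Myd88 were all above the others, by 0.71 ± 0.13 (limma, adjusted p = 0.00895). Egln3 read 7.69, 6.93, 7.76 and 8.43 against 8.67, 8.84, 9.66 and 8.43. One array of each kind met at 8.43, and the difference was 1.20 ± 0.26 (adjusted p = 0.0191).

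Epas1 read 5.66, 5.66, 5.37 and 5.57 with Myd88 and 6.14, 6.17, 5.75 and 6.02 without it. The groups did not overlap (0.46 ± 0.12; limma, adjusted p = 0.0431). Just over the threshold lay the enzyme Pgam1 (0.47 ± 0.13, adjusted p = 0.051, no overlap), the transporter Slc2a3 (1.03 ± 0.28, adjusted p = 0.0516) and Hif1a (0.60 ± 0.17, adjusted p = 0.067). Of the 33 members tested, P4ha1, Epas1 and Pgam1 were wholly above and no member wholly below, beside 4.44% and 2.94% of all genes tested. Ldha (0.05), Hk3 (-0.10), Ddit4 (-0.03) and P4ha2 (0.09) showed little difference.

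The number of members called depended on single A arrays. It was 15 without WT array 1, 2 without WT array 2, 1 and 4 without TNFR1-/- arrays 1 and 2, 3 and 0 without Myd88flox/flox; Tie2-Cre arrays 1 and 2, and 1 and 9 without arrays 1 and 2 of the double. A fit of the A arrays alone called none.

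**Figure D4:**
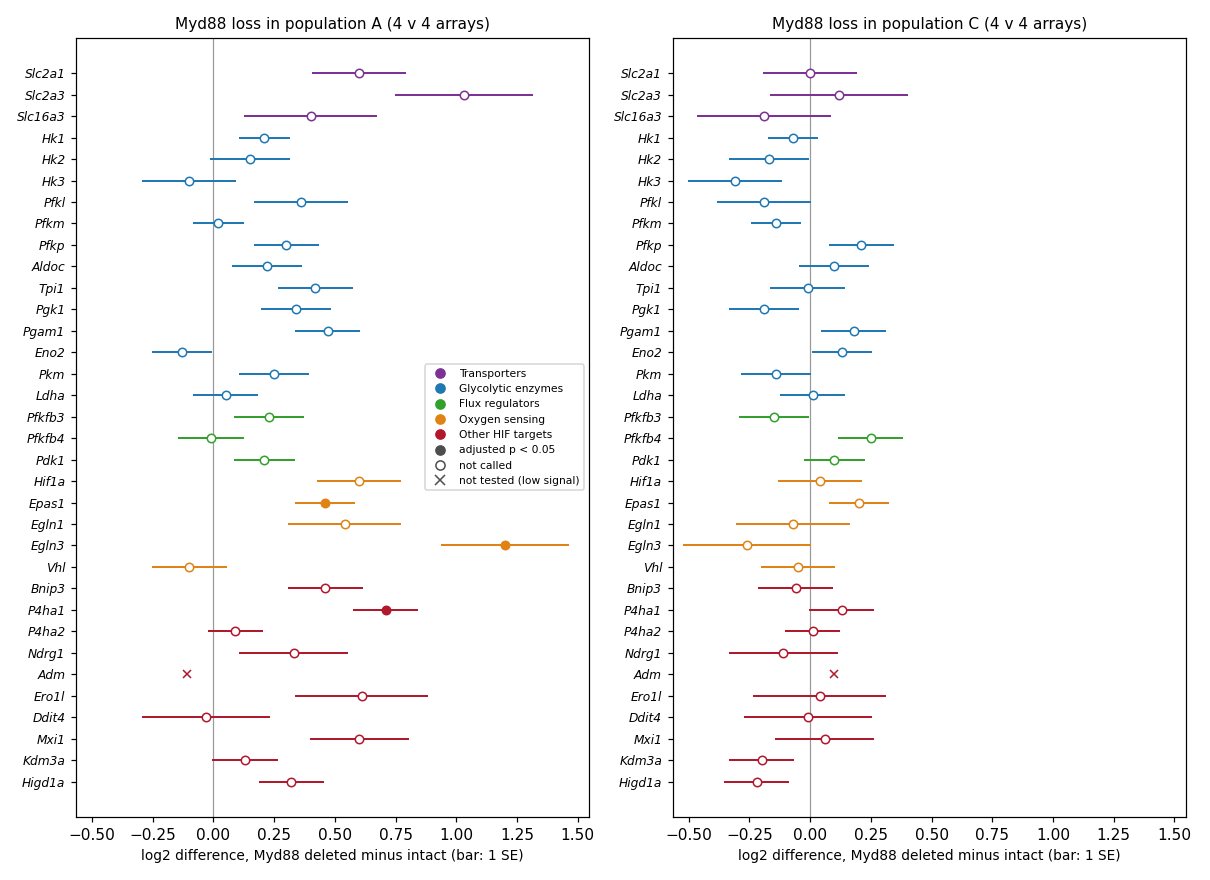
Log2 difference with the loss of Myd88 of each member on the Mouse Gene 2.0 ST chip, in A and in C (4 arrays against 4 in each), ordered by role, with bars of 1 SE and filled points for called members. In A, P4ha1 at 0.71, Egln3 at 1.20 and Epas1 at 0.46 are called, and in C all members lie between -0.31 and 0.25.

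Macrophage markers moved with this comparison. Their mean was 7.82 to 8.19 in A of WT hosts, 7.5 to 8.13 in TNFR1-/-, 8.95 to 9.46 in Myd88flox/flox; Tie2-Cre and 8.36 to 8.45 in the double, and 6 of 12 were called higher with the loss of Myd88, among them Folr2 (1.86 ± 0.16). T lymphocyte markers were higher in 4 of 10 (5.70 to 6.42 in A of the other genotypes and 6.95 to 7.02 in the double), fibroblast markers in 3 of 9, dendritic cell markers in 1 of 7 and endothelial markers in 1 of 9. Limma called no monocyte marker here. The part of these cells in the members' values was not tested.

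Of 26 further HIF genes, 4 were higher with the loss of Myd88 in A: Tfrc (0.92 ± 0.20), Hmox1 (0.88 ± 0.21), Ak4 (0.62 ± 0.14) and Lox (0.57 ± 0.13). Over the chip 4.19% of genes were called higher. Lox was below the low-signal threshold on both A arrays of TNFR1-/- hosts and on A array 2 of WT hosts. Of 21 citric acid cycle and pyruvate oxidation genes, 2 were higher, Mpc1 (0.95 ± 0.17) and Ogdh (0.54 ± 0.12). None of 14 further glycolysis genes was called by limma (the lactate transporter Slc16a1 0.80 ± 0.23, adjusted p = 0.0599) and none of 5 pentose phosphate genes.

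Each genotype was also set against the same 2 A arrays of WT hosts, so these comparisons share their controls. In TNFR1-/- hosts 1 member was called, beside 0.315% of genes higher and 0.339% lower. This was Pfkm, the muscle-type phosphofructokinase, which read 4.76 and 4.83 against 5.57 and 5.52 (-0.75 ± 0.14; limma, adjusted p = 0.0346). Both of its TNFR1-/- values were below the low-signal threshold of their arrays (5.08 and 5.04), so the size of the difference is poorly known. In Myd88flox/flox; Tie2-Cre hosts Egln3 was called, at 8.67 and 8.84 against 7.69 and 6.93 (1.45 ± 0.36, adjusted p = 0.0463), beside 2.47% higher and 0.708% lower. In the double, 3 members were called higher beside 4.33% of genes higher and 1.42% lower. These were Slc2a3 (2.13 ± 0.40, adjusted p = 0.0165), Egln3 (1.74 ± 0.36, adjusted p = 0.0221) and P4ha1 (0.70 ± 0.18, adjusted p = 0.0436).

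Slc2a3 lay above both WT arrays in all 3 genotypes, with differences of 1.61 ± 0.40 in TNFR1-/- and 1.55 ± 0.40 in Myd88flox/flox; Tie2-Cre that missed the threshold (limma, adjusted p = 0.0652 and 0.05). With 2 arrays against 2, 15.3%, 20.5% and 22.2% of all genes tested lay above both WT arrays in TNFR1-/-, Myd88flox/flox; Tie2-Cre and the double. The counts of called members rested on single arrays. For TNFR1-/- they were 0 and 4 without WT arrays 1 and 2, and 1 (Slc2a3 in place of Pfkm) and 0 without its own arrays 1 and 2. For Myd88flox/flox; Tie2-Cre they were 9 and 0 without the WT arrays and 0 without its own array 2. For the double they were 11 and 1 without the WT arrays and 0 and 6 without its own.

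The loss of TNFR1 in A, 4 arrays against 4, called none of the 33 members with limma, beside 0.0424% of genes called higher and 0.139% lower. An unadjusted p under 0.05 was found for 3 of the 33 members, beside 2287 of the 16524 genes tested. Slc2a3 read 8.90, 9.72, 10.61 and 9.04 without TNFR1 and 8.00, 7.40, 9.48 and 9.02 with it, a difference of 1.09 ± 0.28 (adjusted p = 0.123) with overlap. Pfkm differed by -0.38 ± 0.10 (adjusted p = 0.119) and the stress gene Ddit4 by 0.70 ± 0.26 (adjusted p = 0.246), and Egln3 by 0.54 ± 0.26 (adjusted p = 0.374). For Pfkm, both arrays of TNFR1-/- hosts were below the low-signal threshold, as given above. Without WT array 2 the call passed for Egln1 and Pfkm, and without array 2 of the double it passed for Slc2a3.

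In C, no comparison of genotypes called a member with limma. For the loss of TNFR1, 0.472% of all genes were called higher and 0.617% lower. An unadjusted p under 0.05 was found for 6 of 33 members, beside 1215 of the 16524 genes tested. Ndrg1 read 10, 9.83, 9.40 and 9.62 without TNFR1 and 9.17, 8.81, 9.05 and 9.29 with it, and Pfkl 8.19, 8.11, 7.92 and 8.01 against 8.95, 8.61, 8.67 and 8.50. Neither gene overlapped, with differences of 0.63 ± 0.22 and -0.63 ± 0.19 (adjusted p = 0.342 and 0.234), and Pfkp (0.40 ± 0.13), Aldoc (-0.43 ± 0.14), Tpi1 (-0.36 ± 0.15) and Slc16a3 (-0.50 ± 0.27, adjusted p = 0.8) did not overlap either. That makes 2 members wholly above and 4 wholly below, beside 3.01% and 3.37% of all genes tested. A fit of the C arrays alone called 3 members, Ndrg1, Pfkl and Slc16a3.

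For the loss of Myd88 in C, no member had an unadjusted p under 0.05, beside 771 of the 16524 genes tested. Limma called 0.00605% of genes higher and 0.0121% lower. The members' differences were -0.31 to 0.25, the widest those of Hk3 (-0.31 ± 0.19), Egln3 (-0.26 ± 0.26) and Pfkfb4 (0.25 ± 0.13; limma, each adjusted p = 0.998). Against WT, limma called no member in C of TNFR1-/- hosts, of Myd88flox/flox; Tie2-Cre hosts or of the double. Over the chip, 0.0303% of genes were called higher and 0.0424% lower in TNFR1-/- hosts. The shares were 0.00605% in each direction in Myd88flox/flox; Tie2-Cre hosts, and 0.176% higher and 0.133% lower in the double. In that order, 3, 2 and 6 members had an unadjusted p under 0.05, beside 781, 636 and 1019 of the 16524 genes tested. The largest differences of members from WT in C were those of Ndrg1 in TNFR1-/- hosts (0.93 ± 0.31; limma, adjusted p = 0.736) and Pfkl in the double (-0.82 ± 0.27, adjusted p = 0.476).

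Whether a genotype effect differed between A and C was tested as an interaction. For TNFR1 limma called none of the members, beside 0.00605% of genes called higher and 0.0968% lower. An unadjusted p under 0.05 was found for 6 of 33 members, beside 1074 of the 16524 genes tested. Slc2a3 (0.96 ± 0.40), Slc16a3 (0.93 ± 0.38) and Ndrg1 (-0.86 ± 0.31) had the largest differences (adjusted p = 0.728, 0.728 and 0.619). For Myd88 limma called none of the members, beside 0% of genes called in both directions. An unadjusted p under 0.05 was found for 8 of 33 members, beside 1532 of the 16524 genes tested. For Myd88 the largest difference between A and C was that of Egln3 (1.46 ± 0.36, adjusted p = 0.263), whose C arrays ran from 7.93 to 8.90 while A ran from 6.93 to 9.66. So the calls in A and their absence in C are not shown to differ.

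**Figure D5:**
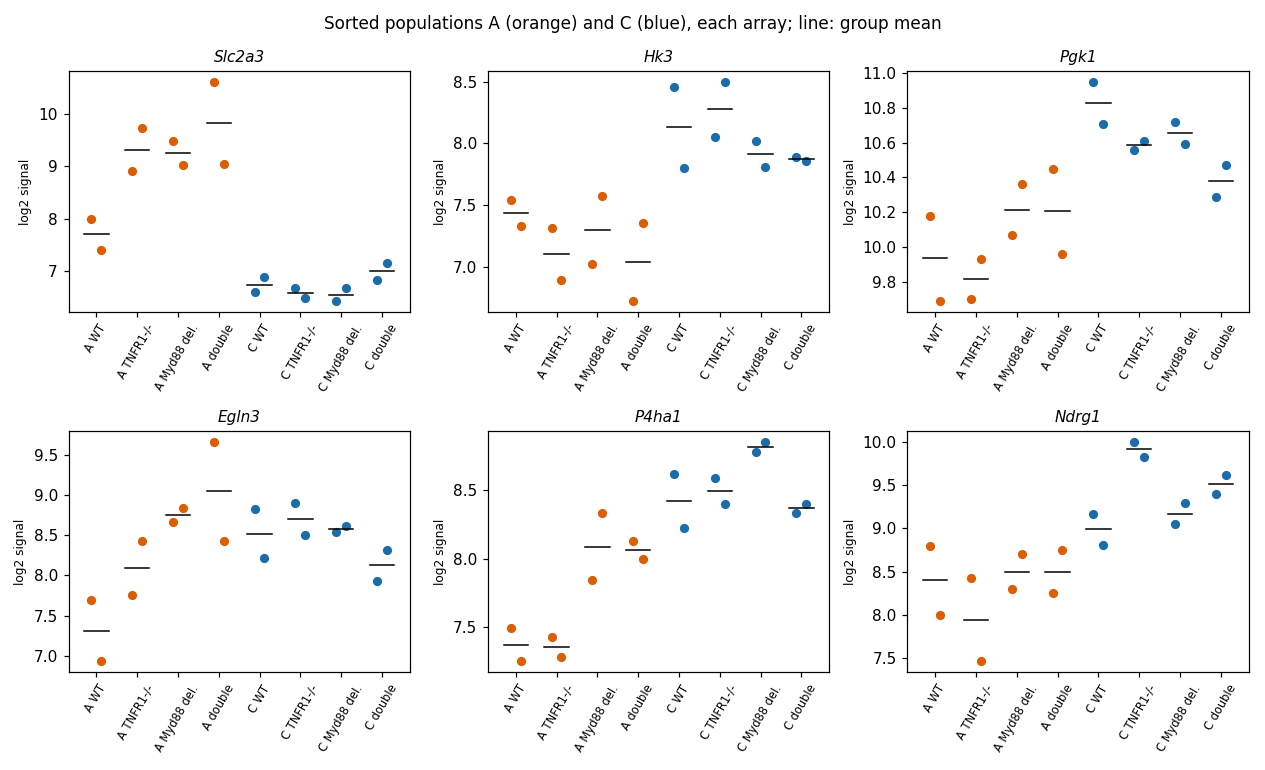
Log2 signal of selected members on each of the 16 sorted arrays, by population and host genotype; points are arrays and bars are means of 2. Slc2a3 in A lies above the 7.16 that is the highest C array in every genotype, and P4ha1 in A is at 7.25 to 7.49 in hosts with Myd88 and 7.84 to 8.33 in hosts without it.

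Among the members with a promoter window, 15 of the 16 that were lower in A than in C held a match to the core in 1 or more windows, and so did 11 of the 13 tested members that were not called. Tpi1 and Pgk1, printed above without and with matches, were lower in A by nearly the same amount (0.59 and 0.57).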

How the data were processed

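RNA extracted with Trizol (100 ng per array) was hybridised to 16 HT_MG-430_PM and 16 Mouse Gene 2.0 ST arrays. Each probe set has a log2 signal that the authors computed by RMA (Affymetrix Expression Console 1.1), as the submitters' processing notes name them. RMA corrects background, equalises the arrays and summarises probes, which removes any global shift in RNA content. The sources used here do not give the sets of arrays that were normalized jointly.

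The platform annotation names the probe sets: 28898 of 45141 on the first chip and 23521 of 41345 on the second carry 1 symbol, and others were left out. A probe set that also carries the symbol of a near copy, such as Pgam1-ps1 or Bnip3l-ps, was therefore not read. A gene was tested when above the 40th percentile of an array's probe sets in a number of arrays no smaller than the smallest group. Two-sided tests were made in limma 3.58.1 (lmFit, eBayes; R 4.3.3), and p-values were adjusted by Benjamini-Hochberg across the genes tested. The bead-enriched experiments were fitted apart, and the sorted arrays together as 8 groups of 2 (8 residual degrees of freedom in the fit). The tests were checked on simulated data. Arrays carry no counts, so their number limits the precision. The alternatives were other probe set, filter, spread, normalization, array weight and fit choices, a replicate block and leaving out arrays.

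Members were named by role, with full statistics for called members (at most 12 in a comparison) or for the 3 largest differences where none was called. From each further list up to 4 called genes, or 2 of smallest p, could be named. Genes near the threshold, Egln1 and Slc16a3 in full between A and C, Gapdh between A and C, and members given as examples without a call, were chosen after their values were seen. The members and lists were chosen with earlier results of these data known.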

Additional observations from a re-analysis of the deposited data

Results flagged for a closer look

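One array stood apart within its group. Aldoa read 12.08 in WT array 1 of the Myd88-/- experiment, where the nearest of the other 4 WT arrays read 11.75 and the lowest 11.66, so that the gap took 0.786 of the group's range. Of 70 gene and group combinations of 5 arrays tested in this way, 1 stood apart, and chance gives about 3.5.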

How the results depend on the processing

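No named gene reversed its direction together with a call: of 3642 values of 217 gene differences under the alternatives, 3312 kept their side of the threshold, 281 lost it and 49 gained it. The count of members called between A and C stayed within 1.5 times of 19 under every alternative run. Taking the mean of all probe sets of a gene gave 3 called members for neuroblastoma against EG7 and 2 for Myd88-/- against WT hosts. Trend and robust variance gave 2 for Myd88-/- hosts and 0 for Myd88flox/flox; Tie2-Cre against WT in A, which was also 0 without the filter and after quantile normalization. Quantile normalization gave 2 for TNFR1-/- against WT in A. It moved the median of all tested genes in neuroblastoma from -0.01 to -0.12, a shift against which the called members kept their calls.

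Array weights gave 8 for the tumour models, 2 for Myd88-/- hosts, 1 for the loss of Myd88 in A, 1 for the loss of TNFR1 in C, and 0 for A against C in WT hosts and for each of the 3 genotypes against WT in A. With all 16 arrays of the chip in a fit, the tumour models had 9 and Myd88-/- hosts 0. With only the WT arrays, A against C had 0. With only arrays of the same population, the loss of Myd88 in A and each genotype against WT in A had 0, the loss of TNFR1 in C had 3, TNFR1-/- against WT in C had 1 and the double in C had 2. Interactions could not be fitted on 1 population. The cause of these changes was not tested, beyond the fewer residual degrees of freedom of the smaller fits. Leaving out 1 array at a time gave 1 to 6 for the tumour models, 0 to 17 for A against C in WT hosts, 0 to 2 for the loss of TNFR1 in A and 0 to 15 for the loss of Myd88 in A. It gave 0 to 4, 0 to 9 and 0 to 11 for TNFR1-/-, Myd88flox/flox; Tie2-Cre and the double against WT in A; where 1 array of a pair was left, it was assumed to vary like the other groups.

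No pairing by replicate number was seen, but so few arrays cannot exclude it, and the labels do not say. Between A and C each genotype gives only 1 such correlation. Deviations of same-numbered arrays correlated at -0.04 to 0.21 in the tumour models and -0.21 to 0.20 in the Myd88-/- experiment, where 2 of 6 and 3 of 10 arrays correlated best with their own number, and at -0.18 to 0.20 between A and C. With the replicate number as a block, 3 members were called in the tumour models instead of 5, and 1 in Myd88-/- hosts, 3 for the loss of Myd88 in A and 19 between A and C as without it.

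Over all genes, 1850 were called in the tumour models (663 to 4319 under the alternatives), 172 in Myd88-/- hosts (48 to 300), 2223 for A against C in WT hosts (301 to 3422), 772 for the loss of Myd88 in A (37 to 2359) and 180 for the loss of TNFR1 in C (72 to 466). For TNFR1-/-, Myd88flox/flox; Tie2-Cre and the double against WT in A the counts were 108 (1 to 1754), 525 (8 to 1516) and 950 (0 to 2341), and for the loss of TNFR1 in A 30 (0 to 700). Quantile normalization moved the share of called genes that were higher from 64.5% to 49.7% in the tumour models, 26.2% to 40.7% for A against C in WT hosts and 89.8% to 70.1% for the loss of Myd88 in A. For Myd88flox/flox; Tie2-Cre and the double in A it moved from 77.7% to 57.9% and 75.3% to 59.7%, and for the double in C from 56.9% to 40.7%.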
